A study of Mus musculus with 2 samples.

Results

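The BMP and TGF-beta pathway genes described here are 46 mouse genes, comprising 24 ligands, 11 receptors, 7 Smads and 4 secreted antagonists, of 20665 autosomal protein-coding genes. They were chosen by name, as members of the pathway. The material was epiblast DNA of wild-type female (XX) C57Bl6/J mouse embryos at embryonic day 6.5, from natural matings without embryo culture. The epiblast, the tissue that forms the embryo proper, was dissected by hand away from the extra-embryonic tissues, whose DNA served to determine sex by PCR. Both samples of this only group had whole-genome bisulfite libraries, in which unmethylated cytosines are read as T and methylated cytosines stay C. No treated, mutant or male group is included, and the count of embryos in each sample is not given in the sources used here.

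BMPs, GDFs, activins and TGF-betas are secreted dimers that bring together type I and type II serine/threonine kinase receptors. The activated type I receptor phosphorylates receptor-activated Smads, which join Smad4 and act on target genes in the nucleus, while inhibitory Smads and extracellular antagonists limit the signal. In the mouse embryo before and during gastrulation, BMP signals from the extra-embryonic ectoderm are known to induce primordial germ cell precursors and to help form mesoderm in the adjacent epiblast. DNA methylation of CpG-dense gene starts is generally low, and that of gene interiors generally high, in mammalian cells.

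The deposited table gave methylated and unmethylated read counts per CpG for the group as a whole, with no column per sample. No error between samples and no test was therefore possible, and each interval below is an exact 95% Clopper-Pearson interval that covers counting error only, since reads without molecular identifiers are not independent molecules. On the autosomes 89.9% of 20383623 CpGs had a read, at a median of 6 reads per CpG, and 66.3% of the 133245671 read counts were methylated. A level is the percentage of methylated read counts in a region. A promoter is the window 500 bp on either side of the gene start, a shore the sequence 500 to 2000 bp from the start, and the gene body what lies between start and end less 1000 bp at each end. The body thus begins inside the downstream shore, and these regions share reads from 1000 to 2000 bp downstream. Calls rest on the interval: a region is low if all of it lies under 20%, high if all of it lies over 60%, intermediate if it falls within these limits, and unresolved in all other cases. Promoter windows with at least 40 CpGs are called CpG-rich and those with under 20 CpG-poor.

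Most of the pathway had unmethylated gene starts. All 46 promoters were measured, and 38 were called low, none intermediate, 5 high and 3 unresolved. Of 18362 measured promoters of all autosomal genes, 64.7% were called low, 4.66% intermediate, 15.4% high and 15.2% unresolved. The median promoter level was 5.30% over the 46 pathway genes and 8.29% over all autosomal genes. By role the median was 9.09% for ligands, 4.02% for receptors, 3.79% for Smads and 3.49% for antagonists. The 5 high promoters belonged to 4 ligand genes (Bmp10, Gdf5, Inha and Mstn) and to the receptor gene Bmpr1b, and the 3 unresolved promoters to the ligand genes Bmp4, Bmp5 and Gdf15.

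CpG number separated these promoters. All 36 CpG-rich pathway promoters were called low, against a background of 97.2% low and 0.154% high among all CpG-rich promoters, so this count lay near the background. Their median was 4.04%, against 5.40% for all CpG-rich promoters. For 12 members the start was itself taken as the gene end with more CpGs, a rule that favours the CpG-rich class. Bmp2, Bmp7, Gdf6, Tgfb3, Tgfbr3, Smad4, Smad7, Nog and Fst are such members among the 36. Of the 34 members with a start in the RefSeq promoter table, 27 had a low promoter. Among the 36 is also Amh, measured at its CpG-denser end. Mouse Amh is known to be transcribed from its other end, where 12 CpGs were at 69.3%, a high call. Of the 6 promoters with 20 to 39 CpGs, 2 were low (Bmp3 and Inhba), 3 were high (Bmp10, Gdf5 and Inha) and Bmp4 was unresolved, where the background was 38.7% low and 19.8% high. Of the 4 CpG-poor promoters none was low and 2 were high (Mstn and Bmpr1b), where the background was 0.993% low and 50% high. Ligand genes held 9 of these 10 promoters with fewer CpGs, and Bmpr1b was the exception.

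**Figure D1:**
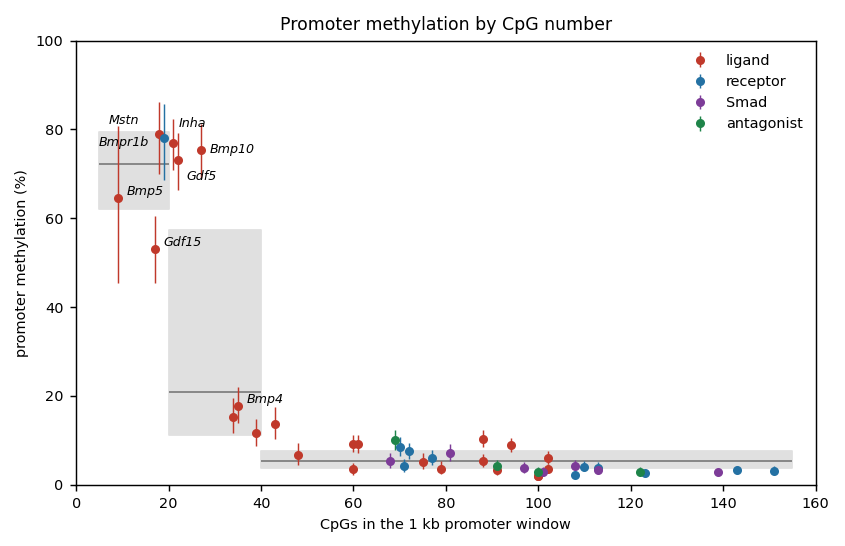
Promoter methylation level (vertical axis, % of read counts) against the number of CpGs in the promoter window (horizontal axis) for the 46 pathway genes, coloured by role, with 95% counting intervals as bars. Grey bands span the quartiles and grey lines mark the medians of all autosomal promoters in the same CpG class (72.3% for CpG-poor, 20.8% for 20 to 39 CpGs, 5.40% for CpG-rich); points with 40 or more CpGs all lie under 20%, and every point over 50% has fewer than 28 CpGs.

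To show what these gene starts look like, the 250 bases before the start are printed for the lowest and the highest promoter of each role among genes with an entry in the RefSeq promoter table (GRCm38.p6, the mm10 build). Each is written 5' to 3' on the strand of its gene, and capitals mark CG, the dinucleotide whose cytosine was measured. Inhbb lies at chr1:119422249-119422498 (minus strand), Mstn at chr1:53061390-53061639 (plus), Acvr2b at chr9:119401928-119402177 (plus) and Bmpr1b at chr3:141982265-141982514 (minus). Smad3 lies at chr9:63757995-63758244 (minus), Smad6 at chr9:64022060-64022309 (minus), Chrd at chr16:20732877-20733126 (plus) and Grem1 at chr2:113758649-113758898 (minus).
Inhbb: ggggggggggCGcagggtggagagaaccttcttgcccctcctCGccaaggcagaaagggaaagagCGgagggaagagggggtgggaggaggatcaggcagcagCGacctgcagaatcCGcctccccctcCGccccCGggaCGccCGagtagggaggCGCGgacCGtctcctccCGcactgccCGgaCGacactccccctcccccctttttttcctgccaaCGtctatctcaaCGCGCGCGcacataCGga
Mstn: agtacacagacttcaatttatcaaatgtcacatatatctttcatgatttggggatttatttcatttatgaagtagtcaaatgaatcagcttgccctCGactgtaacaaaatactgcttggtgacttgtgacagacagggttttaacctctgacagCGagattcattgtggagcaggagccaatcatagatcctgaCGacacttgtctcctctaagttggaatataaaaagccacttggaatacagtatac
Acvr2b: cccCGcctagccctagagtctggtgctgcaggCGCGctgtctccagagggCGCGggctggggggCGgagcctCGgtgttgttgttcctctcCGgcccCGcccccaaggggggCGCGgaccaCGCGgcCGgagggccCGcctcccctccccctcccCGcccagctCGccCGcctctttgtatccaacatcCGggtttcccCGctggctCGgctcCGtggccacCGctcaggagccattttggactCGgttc
Bmpr1b: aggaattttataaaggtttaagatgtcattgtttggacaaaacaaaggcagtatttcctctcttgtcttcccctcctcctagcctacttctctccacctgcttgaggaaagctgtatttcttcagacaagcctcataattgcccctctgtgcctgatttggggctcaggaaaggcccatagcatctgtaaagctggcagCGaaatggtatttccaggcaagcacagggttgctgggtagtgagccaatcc
Smad3: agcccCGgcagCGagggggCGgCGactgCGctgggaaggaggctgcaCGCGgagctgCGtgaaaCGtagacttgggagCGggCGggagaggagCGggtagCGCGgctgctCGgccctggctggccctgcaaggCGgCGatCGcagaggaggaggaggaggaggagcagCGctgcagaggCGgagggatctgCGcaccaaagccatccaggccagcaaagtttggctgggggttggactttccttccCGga
Smad6: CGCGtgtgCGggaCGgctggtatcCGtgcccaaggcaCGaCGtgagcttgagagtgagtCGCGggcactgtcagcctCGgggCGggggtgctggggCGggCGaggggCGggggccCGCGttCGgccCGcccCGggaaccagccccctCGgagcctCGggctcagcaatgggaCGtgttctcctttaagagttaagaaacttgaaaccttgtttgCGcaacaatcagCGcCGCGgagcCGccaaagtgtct
Chrd: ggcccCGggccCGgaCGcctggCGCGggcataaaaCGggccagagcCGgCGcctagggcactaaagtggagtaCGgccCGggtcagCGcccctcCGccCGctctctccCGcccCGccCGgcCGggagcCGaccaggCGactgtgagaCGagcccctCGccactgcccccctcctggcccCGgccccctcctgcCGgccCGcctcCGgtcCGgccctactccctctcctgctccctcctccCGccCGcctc
Grem1: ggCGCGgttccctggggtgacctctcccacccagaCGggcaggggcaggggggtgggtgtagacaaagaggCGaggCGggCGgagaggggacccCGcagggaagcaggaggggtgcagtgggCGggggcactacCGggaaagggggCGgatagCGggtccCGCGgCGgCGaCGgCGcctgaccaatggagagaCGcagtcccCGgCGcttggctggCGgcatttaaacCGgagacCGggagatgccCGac

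The stretches at Mstn and Bmpr1b held 3 and 1 CG, while the other printed stretches held 21 (Inhbb) to 28 (Chrd). Within the printed bases, 14 of 19 read counts were methylated at Mstn and 1 of 5 at Bmpr1b, so that too few reads covered them to place a level closely. Chrd had 6 of 254 read counts methylated (2.36%), Smad3 8 of 205 (3.90%), Grem1 6 of 111 (5.41%), Acvr2b 6 of 99 (6.06%) and Smad6 25 of 298 (8.39%). The Inhbb stretch was at 16.2% (interval 8.67 to 26.6, 74 read counts), higher than its whole window at 3.28% (interval 2.21 to 4.68). All 850 CG of the promoter sequences of the 34 members with an entry were CpGs of the deposited table, as they are when both use the same build. The motif GGCGCC, known as a GC-rich Smad1/5-type binding sequence and read on both strands (it is its own reverse complement), occurred in the promoter sequences of 10 of 34 members and in 11.9% of 32851 promoter sequences. Those 10 were Acvr1b, Bmpr1a, Bmpr2, Chrd, Gdf1, Gdf10, Grem1, Smad5, Smad9 and Tgfbr1, with any of a gene's listed starts counted. The member share is thus per gene, while the background share is per sequence, so these shares are not in like units. Each promoter sequence is 300 bases long, shorter than the promoter window used for levels. The motif GTCTAGAC, known as a palindromic Smad3/Smad4 binding sequence, occurred at 1 of 34 members, Smad6, and in 0.213% of promoter sequences. GGCGCC itself holds a CG, while its background share takes promoter sequences of every CpG class. A share among CpG-rich promoters alone was not computed. A match gives letters in a window and no binding.

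Among the BMP and GDF ligands, 11 of 16 promoters were low. Bmp7, a ligand needed for kidney and eye development, had the lowest promoter of the 46 genes at 1.90% (interval 1.24 to 2.80, 1313 read counts over 100 CpGs, chr2:172939821-172940821). Its shores were at 8.28% and its body at 69.5%. Bmp2, known for roles in heart and mesoderm formation, was at 2.00% (interval 1.32 to 2.90, 1348 read counts over 100 CpGs, chr2:133551659-133552659), with shores at 14.7% and a body at 29.2%. These intervals overlapped, so the order of these promoters could not be resolved. Of 97 Bmp2 promoter CpGs with at least 5 reads, 75 had no methylated read and the highest stood at 21.4%.

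The other low promoters of this group ranged from Bmp8a at 3.39% to Bmp3 at 15.3%. Bmp8a and Bmp8b, near-identical paralogs of which Bmp8b is known to act with BMP4 in germ cell induction, were at 3.39% and 8.87%, and reads from a shared sequence cannot be assigned between them with certainty. Gdf11, a patterning ligand of the axial skeleton, was at 3.53%. Gdf6 and Gdf7, ligands of joint and dorsal neural development, were at 3.59% and 5.35%. Bmp6, a regulator of iron balance through hepcidin, was at 6.07%. Gdf1, a partner of Nodal in left-right patterning, was at 9.13%, in a window shared with Cers1, and another listed start of Gdf1 13990 bp away was at 21.7% (unresolved). Gdf10, also named Bmp3b, was at 10.3%. Bmp3, which is known to oppose other BMPs, was at 15.3% (interval 11.6 to 19.6), just inside the limit for a low call.

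Bmp4 lay just outside that limit. Its product is the BMP of the extra-embryonic ectoderm that acts on the epiblast. Its promoter (chr14:46390169-46391169, 35 CpGs) was at 17.6% (interval 13.8 to 22.0, 357 read counts) and was unresolved. The downstream shore of Bmp4 was at 14.1% and its upstream shore at 48.6%, while its body, less 1000 bp at each end, was at 15.6% (interval 14.1 to 17.3, 2043 read counts over 235 CpGs). From the start of Bmp4, bins under 20% ran 250 bp upstream and 4750 bp downstream. Single Bmp4 promoter CpGs ranged from 0 to 81.8%, and 21 of 32 with at least 5 reads were under 20%. Beyond that run Bmp4 was methylated, with 28.8% in the bin centred 4875 bp downstream, 87.6% (interval 82.7 to 91.5) in a CpG-dense stretch 6045 bp from the start, and 81.0% (interval 65.9 to 91.4) at the far end of the gene. The pooled body level of Bmp4 was called low, as were 2.19% of all measured gene bodies. Inside that body lay the bin at 28.8% and a CpG-dense stretch 4245 bp from the start at 19.8% (interval 16.3 to 23.8), which was unresolved. The stretch at 87.6% lay mostly in the 1000 bp left out of the body. The window at the far end lay wholly outside the body, partly in those 1000 bp and partly beyond the gene.

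Bmp5, Bmp10, Gdf5 and Gdf15 had methylated or partly methylated starts. Bmp5, a ligand known from the short ear mouse mutant, was at 64.5% in its window (chr9:75774865-75775865), but 9 CpGs with 31 read counts left an interval of 45.4 to 80.8. Its shores were at 61.8% and its body at 72.6%. Bmp10, a ligand of the developing heart, was at 75.5% (interval 69.1 to 81.2, 208 read counts over 27 CpGs, chr6:87428494-87429494), with shores at 81.9% and a body at 81.6%. Bmp10 thus showed no low stretch at the start, and its promoter interval overlapped those of its shores and body.

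Gdf5, a joint-forming ligand, was at 73.2% (interval 66.4 to 79.3, 194 read counts over 22 CpGs, chr2:155944867-155945867). Its shores were lower, at 43.4% (interval 38.4 to 48.4), and its body was at 54.1% (interval 49.6 to 58.6). Gdf15, a stress-induced ligand that reduces appetite, was at 53.0% (interval 45.5 to 60.5, 181 read counts over 17 CpGs, chr8:70631956-70632956) with shores at 32.8%. The 2 sides of Gdf15 differed, with 15.6% downstream (615 read counts) and 76.4% upstream (242 read counts), and its body was at 14.9% (interval 11.7 to 18.6). A further start of Gdf15 in the promoter table, 361 bp downstream, was at 31.9% (interval 25.8 to 38.6) and intermediate. The promoters of Gdf5 and Gdf15 stood above the level pooled over both shores and above the body, with intervals apart, while the upstream shore of Gdf15 alone (interval 70.6 to 81.6) stood above its promoter. Most of the Gdf15 body lies within its downstream shore, and the Gdf5 body overlaps its downstream shore. The shore and body comparisons of these genes therefore share reads.

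**Figure D2:**
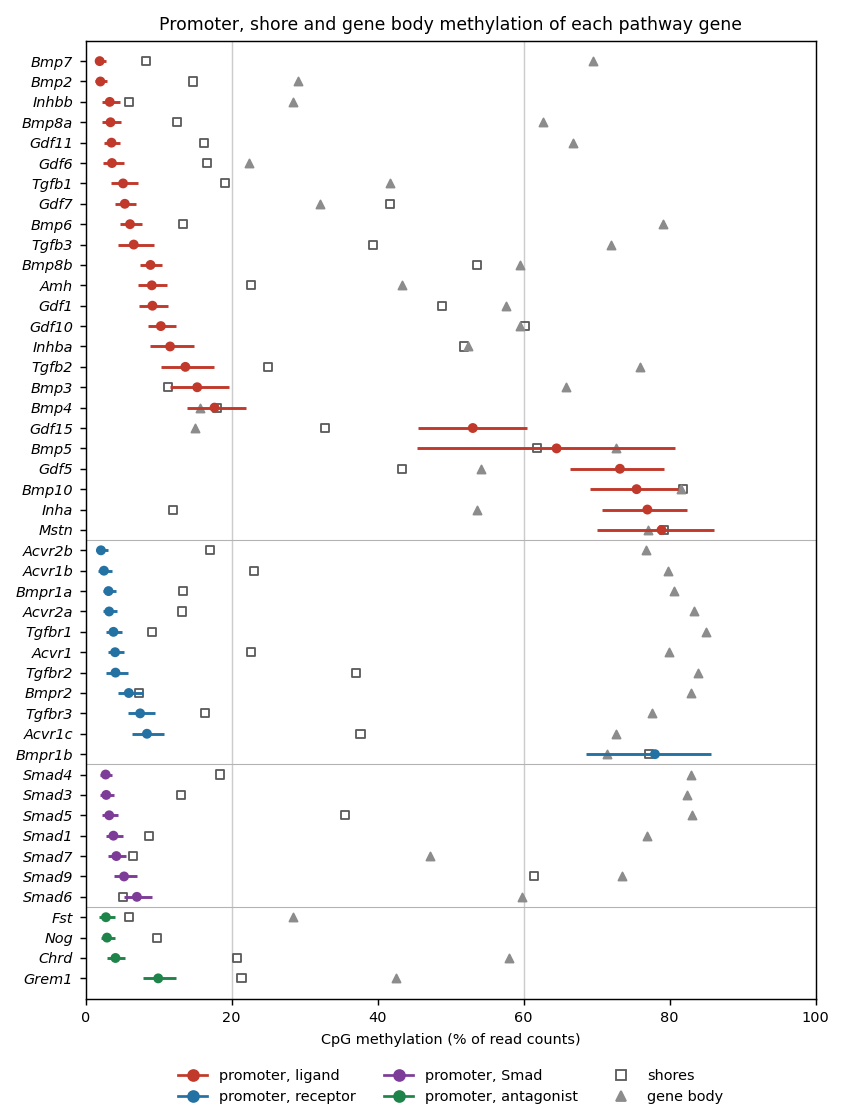
Methylation level (horizontal axis, % of read counts) of the promoter (coloured circles with 95% counting intervals), the shores (open squares) and the gene body (grey triangles) of each of the 46 genes, grouped by role and sorted by promoter level. Vertical lines mark 20% and 60%; 38 promoters lie left of 20% with their whole interval, and in Gdf5, Gdf15 and Inha the circle stands right of the square, which pools both shores, and of the triangle.

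Among the TGF-betas, activins, inhibin and related ligands, 6 of 8 promoters were low. Inhbb, which encodes the subunit of activin B, was lowest at 3.28%, with shores at 5.88% and a body at 28.4%. Inhba, the subunit of activin A, was at 11.6% (interval 8.75 to 14.9), with shores at 51.8%. Tgfb1, Tgfb3 and Tgfb2, the 3 TGF-beta isoforms, were at 5.11%, 6.57% and 13.6%. The interval of Tgfb2 (10.4 to 17.5) did not overlap those of Tgfb1 (3.52 to 7.14) and Tgfb3 (4.41 to 9.36). The starts used for Tgfb2 and Inhba lie 3708 bp and 7595 bp inside the gene. At the upstream gene end Tgfb2 was at 66.7% (interval 52.1 to 79.2, 51 read counts), unresolved. That end of Inhba had too few CpGs with a read to be measured.

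Amh, the hormone that causes regression of the Müllerian ducts, was at 9.05% in a window at its CpG-denser, higher-coordinate end. The tables used give no strand for Amh, and mouse Amh is known to be transcribed from its lower-coordinate end. There, 12 CpGs were at 69.3% (interval 61.7 to 76.2, 166 read counts), which is a high call. With that start the pathway has 37 low and 6 high promoters. The counts by CpG class, the shore and low domain values and the figures keep the CpG-denser end of Amh.

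Mstn and Inha had the highest ligand promoters. Mstn, which encodes myostatin, the inhibitor of muscle growth, was at 78.9% (interval 70.0 to 86.1, 109 read counts over 18 CpGs, chr1:53061140-53062140). Its shores at 79.3% and its body at 77.1% had overlapping intervals, so Mstn was methylated evenly along the region. Inha, the inhibin alpha subunit that turns an activin subunit into an antagonist of activin, was at 77.0% (interval 70.8 to 82.4, 217 read counts over 21 CpGs, chr1:75507109-75508109). Its upstream shore was at 5.25% (interval 4.17 to 6.52, 1466 read counts over 105 CpGs) and reaches the neighbouring gene Obsl1, while its downstream shore was at 56.1% and its body at 53.6%. The Inha promoter thus stood beside a low CpG-dense stretch, at 2.82% in the 250 bp bin centred 1625 bp upstream, against 78.7% in the bin centred 125 bp upstream. Mstn, Inha, Bmp10 and Gdf5 had overlapping promoter intervals.

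Among the receptors, 10 of 11 promoters were low, in a range of 2.08% to 8.38%. Acvr2b, a type II receptor for activins, was lowest at 2.08% (interval 1.39 to 2.99, 1345 read counts over 108 CpGs, chr9:119401678-119402678), with shores at 17.0% and a body at 76.7%. Acvr1b, the type I receptor ALK4 of activin and Nodal, was at 2.49% (interval 1.65 to 3.61, 1083 read counts over 123 CpGs, chr15:101173572-101174572), with shores at 23.1% and a body at 79.7%. The type I receptors for BMPs Bmpr1a and Acvr1 were at 3.12% and 4.02%, and the window of Acvr1 overlaps Upp2. Acvr2a, which also binds activins, was at 3.20%. Tgfbr1 and Tgfbr2, the type I and type II receptors of TGF-beta, were at 3.80% and 4.08%. Bmpr2, the type II receptor of BMPs, was at 5.90%, and Tgfbr3, the co-receptor betaglycan, was at 7.45%. Acvr1c, the type I receptor ALK7, was highest of the low receptors at 8.38% (interval 6.39 to 10.7, 668 read counts over 70 CpGs, chr2:58357258-58358258), with shores at 37.6% and a body at 72.7%. The intervals of Acvr1c and Acvr2b did not overlap. Low calls of receptors hold for the outermost listed start: another start of Acvr1c, 32951 bp away, was at 28.9% (intermediate), and another of Tgfbr1, 32994 bp away, at 89.9% (high).

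Bmpr1b, a type I BMP receptor of cartilage and ovary, was the exception among receptors at the start used. At the outermost start that the promoter table lists, it was at 78.0% (interval 68.6 to 85.7, 100 read counts over 19 CpGs, chr3:141981764-141982764), with shores at 77.2% and a body at 71.4%. That start lies inside the gene. Bmpr1b is on the minus strand, so its higher-coordinate end lies upstream of the start used. At the gene's higher-coordinate end, 187321 bp away, 57 CpGs were at 12.4% (interval 9.56 to 15.8, 458 read counts), which is a low call, and its other 2 listed starts were at 13.4% (interval 7.69 to 21.1) and 14.8% (interval 8.98 to 22.3), both unresolved. The high call of Bmpr1b therefore holds for the start used and not for the upstream end of the gene, which was low.

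All 7 Smad promoters were low, in a range of 2.72% to 7.01%. Smad4, the common partner of the other Smads, was lowest at 2.72% (interval 2.01 to 3.59, 1763 read counts over 139 CpGs, chr18:73703291-73704291), with shores at 18.4% and a body at 83.0%. Smad3, which carries TGF-beta and activin signals, was at 2.81% (interval 1.97 to 3.86, 1283 read counts over 101 CpGs, chr9:63757494-63758494), with shores at 13.0% and a body at 82.4%. The BMP-branch Smads were at 3.22% for Smad5, 3.79% for Smad1 and 5.25% for Smad9. Smad9 (interval 3.83 to 7.01, 819 read counts over 68 CpGs, chr3:54755082-54756082) had shores at 61.5%, where Smad1 had 8.61% and Smad5 had 35.6%. By side, Smad9 had 40.9% downstream and 74.6% upstream, Smad5 was called low downstream and had 74.8% upstream, and Smad1 had 7.52% downstream with its upstream side not measured. The shore value of Smad1 rests almost wholly on its downstream side, with 798 of 813 read counts. The body of Smad9 was at 73.5%.

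The inhibitory Smads, Smad7 and Smad6, were at 4.19% and 7.01%. The window of Smad6 (interval 5.26 to 9.11, 728 read counts over 81 CpGs, chr9:64021559-64022559) was no lower than its shores at 5.15% (interval 4.37 to 6.03), and its body was at 59.8%. Smad7 also had shores near its promoter level, at 6.43%, and a body at 47.2%. Smad6 and Smad7 were thus low well beyond the promoter, while the bodies of the receptor-activated Smads and Smad4 lay between 73.5% and 83.1%.

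All 4 antagonist promoters were low at the start used. Fst, which encodes follistatin, the binder of activins, was at 2.76% (interval 1.81 to 4.02, 941 read counts over 100 CpGs, chr13:114458489-114459489), with shores at 5.91% and a body at 28.4%. Nog, which encodes noggin, the binder of BMPs, was at 2.91% (interval 2.07 to 3.97, 1307 read counts over 122 CpGs, chr11:89302059-89303059) with shores at 9.75%, and is too short to leave a body. Chrd, which encodes chordin, another BMP binder, was at 4.07% (interval 2.97 to 5.43, 1081 read counts over 91 CpGs, chr16:20732627-20733627, overlapping Thpo), with shores at 20.7% and a body at 58.0%. Grem1, which encodes the BMP antagonist gremlin, was highest at 9.93% (interval 7.84 to 12.4, 715 read counts over 69 CpGs, chr2:113758148-113759148), with shores at 21.3% and a body at 42.5%. Its interval did not overlap those of the other antagonists. The start used for Chrd lies 1702 bp inside the gene. At the upstream end of Chrd, 9 CpGs were at 77.8% (interval 66.4 to 86.7, 72 read counts), a high call.

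Shores of the pathway genes took mixed levels. The median shore level was 18.8% over the 46 genes and 51.5% over all autosomal genes. Within CpG-rich promoters it was 16.8% for the pathway genes and 34.1% for all. By role the shore median was 23.8% for ligands, 17.0% for receptors, 13.0% for Smads and 15.2% for antagonists. Of the 46 shores 20 were called low, 12 intermediate, 3 high (Bmp10, Mstn and Bmpr1b) and 11 unresolved, and of all measured shores 14.2% were low, 30% intermediate, 28% high and 27.8% unresolved. The low shores included 4 of the 7 Smads, 6 of the 11 receptors, 8 of the 24 ligands, and Fst and Nog.

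The downstream side was the lower side in most genes. It was lower than the upstream side in 31 of 45 genes, against 64.9% of all genes, which is near the background. The median was 15.1% downstream and 45.5% upstream, and within CpG-rich promoters it was 12.9% downstream and 37.3% upstream for pathway genes, against 30.3% downstream and 53.4% upstream for all genes. Bmp3 had 6.67% downstream and 68.4% upstream, and Tgfb2 had 15.6% downstream and 85.2% upstream. Acvr1 ran the other way, with 70.6% downstream and 4.48% upstream. The upstream shore of Smad1 had too few read counts to be measured.

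Promoters were lower than shores in 39 of 46 genes, against 83.7% of all genes, and the intervals were apart in 34 of these, against 69.0%. They were higher with intervals apart in 3 genes (Gdf5, Gdf15 and Inha), against 3.57% of all genes. The difference was +65.0 points at Inha, +29.8 at Gdf5 and +20.2 at Gdf15, promoter minus shores, and its median over the 46 genes was -10.2 points. Against bodies, promoters were lower in 39 of 45 genes (87.1% of all genes), with intervals apart in 37 (78.9%), and higher with intervals apart in the same 3 genes (4.30%). These shares lay near those of all genes. The body of Inha lies wholly, and that of Gdf15 mostly, within the downstream shore, so the shore and body comparisons share reads. An upper bound under 10% was found at 29 of the 46 promoters, and at 46.7% of all promoters.

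Median gene body levels differed by role, and so did gene length. The median body level was 69.5% over the 45 measured pathway genes and 76.8% over all autosomal genes, and within CpG-rich promoters it was 72.0% for the pathway genes and 80.0% for all. Receptors had a median of 79.9% and Smads of 77.0%, while ligands had 58.5% and antagonists 42.5% (3 bodies measured). Receptor genes were 39613 to 332451 bp long. The longest ligand genes, Bmp5, Bmp6, Bmp7 and Tgfb2 (72310 to 154599 bp), had bodies at 69.5% to 79.1%. Among short ligand genes, Gdf7 (4037 bp) was at 32.0% and Inhbb (6786 bp) at 28.4%. Bmp10 (5519 bp) and Mstn (6440 bp) were at 81.6% and 77.1%. Whether gene length accounts for the difference between roles was not tested. All 11 receptor bodies were called high, in a range of 71.4% (Bmpr1b) to 85.0% (Tgfbr1). Of the 45 bodies, 2 were called low (Bmp4 and Gdf15), 12 intermediate, 26 high and 5 unresolved, while the background was 2.19% low, 8.08% intermediate, 82.6% high and 7.10% unresolved. The 12 intermediate bodies belonged to 9 ligands (Bmp2, Gdf1, Gdf5, Gdf6, Gdf7, Tgfb1, Inhba, Inhbb and Amh), to Smad7 and to the antagonists Fst and Grem1. Gdf6 had the lowest of these, at 22.4% (interval 20.8 to 24.0). With 2000 bp left out at each end the median over the 41 genes still measured was 73.5%.

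The wide low starts are seen in the bins. The profile by distance had CpG-rich pathway genes at a median of 15.6% in the 250 bp bin centred 1125 bp downstream, where all CpG-rich promoters had 40%. On the upstream side at the same distance the medians were 28.9% for CpG-rich pathway genes and 58.8% for all CpG-rich promoters. In the bin centred 1875 bp downstream they were 42.1% and 73.1%, in the same order. Receptors had returned to 72.7% there, while ligands stood at 36.1% and Smads at 42.5%.

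**Figure D3:**
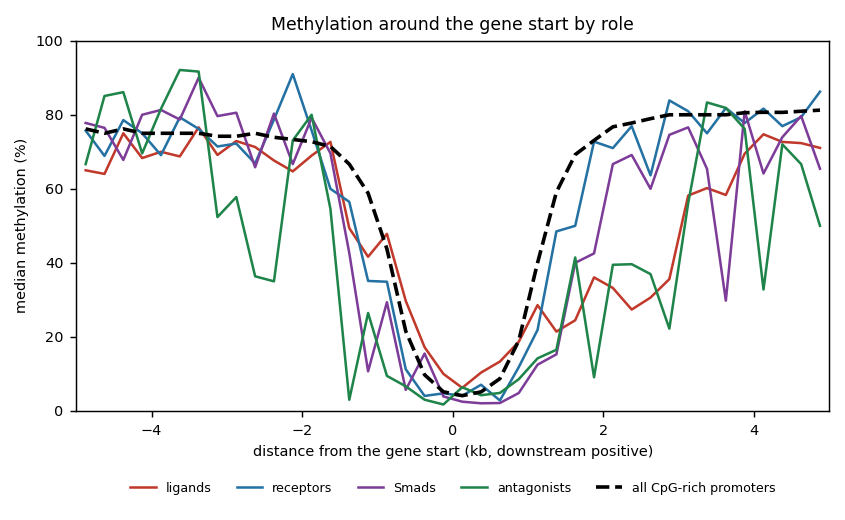
Median methylation level (vertical axis, %) in 250 bp bins by distance from the gene start (horizontal axis, kb, downstream positive) for ligands, receptors, Smads and antagonists (coloured lines) and for all CpG-rich autosomal promoters (dashed). In the bin centred 1125 bp downstream all 4 coloured lines (12.5% to 28.6%) lie under the dashed line (40%); each coloured line rests on at most 4 to 24 genes, fewer in bins without enough reads.

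The low domain is the run of 250 bp bins under 20% around the start. Its median width was 2000 bp over the 38 pathway genes with a low promoter and 1500 bp over all 11878 genes with one. It was wider than 2000 bp in 18 of 38 pathway genes, against a background of 19.0%, and in 18 of 36 CpG-rich pathway genes, against 19.6%. Among the 27 with a start in the promoter table the median was 1750 bp, with 11 wider than 2000 bp, where the 9636 such genes with a low promoter had 1500 bp and 18.5%. The low domain was wider than 5000 bp in 2 genes, Smad6 (6750 bp) and Nog (5750 bp), against 1.72% of all low promoters and 1.71% of the CpG-rich ones. Bmp7 and Smad7 followed with 4750 bp each, Gdf6 with 4500 bp, Inhbb with 3750 bp, Gdf11 and Fst with 3500 bp each, Tgfb1 with 3250 bp and Smad3 with 3000 bp. At the other end, Inhba and Gdf10 had 750 bp. Domains of 3000 bp or more were thus found at ligand, Smad and antagonist genes, while the widest among receptors was that of Tgfbr3 with 2750 bp.

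By role, the median width was 1500 bp for ligands, 2125 bp for receptors, 2250 bp for Smads and 2875 bp for antagonists. The domain reached further downstream than upstream in 29 of 38 genes, against 65.0% of all genes with a low promoter. Its median reach was 1250 bp downstream and 750 bp upstream in pathway genes, and 750 bp downstream and 500 bp upstream in all. Smad6 reached 5250 bp downstream and 1500 bp upstream, and Nog 4250 bp downstream and 1500 bp upstream. Bmpr2 and Acvr1 reached further upstream, by 1750 bp and 1250 bp, than downstream, by 750 bp and 500 bp.

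**Figure D4:**
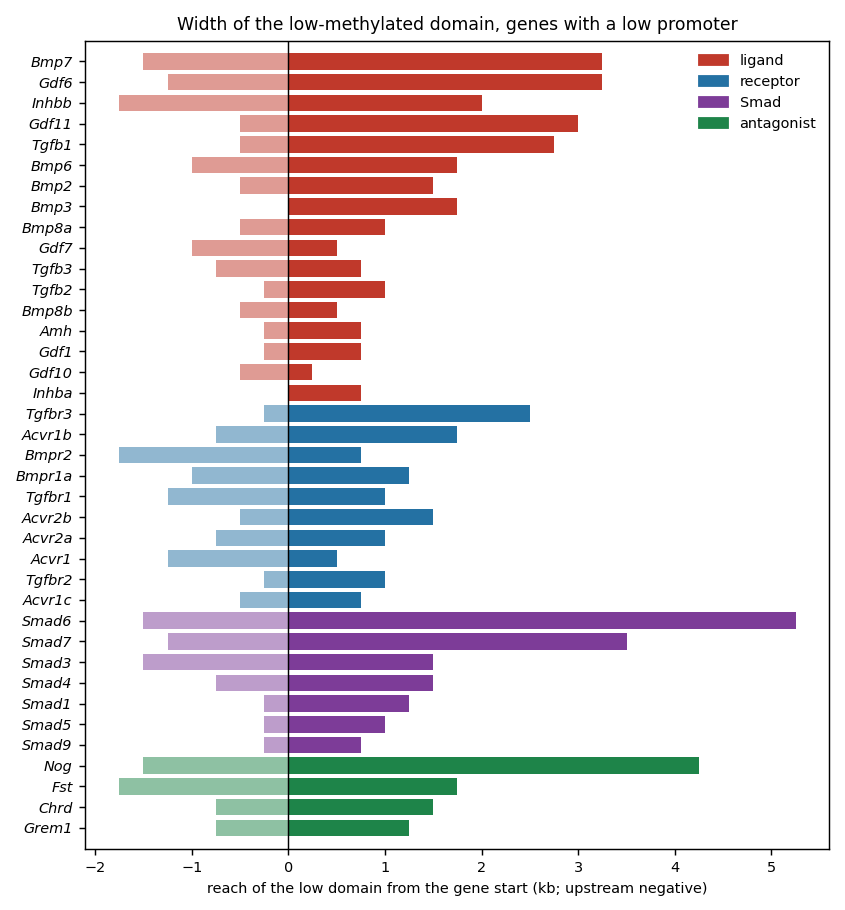
Reach of the low domain downstream (dark bars, to the right) and upstream (pale bars, to the left) of the gene start (horizontal axis, kb) for the 38 genes with a low promoter, by role. Smad6 and Nog have the longest bars downstream, at 5250 and 4250 bp, and Bmp3 and Inhba have none upstream.

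**Figure D5:**
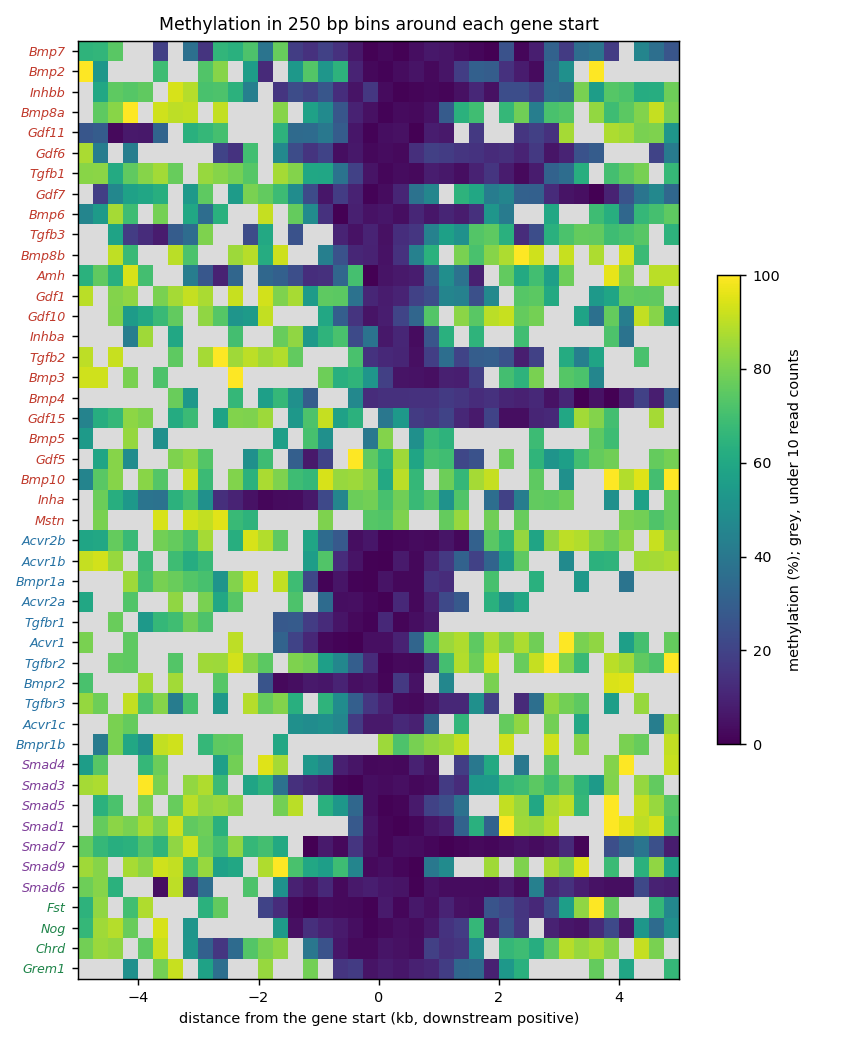
Methylation level (colour, %) in 250 bp bins from 5 kb upstream to 5 kb downstream of the start (horizontal axis, kb) for each of the 46 genes, grouped by role (colour of the name); bins with under 10 read counts are grey. Dark bands at the start are broad at Smad6, Smad7, Bmp7 and Nog, the band of Bmp4 runs mostly downstream (4750 bp, against 250 bp upstream), that of Inha lies 1 to 2.5 kb upstream, and Mstn, Bmp10 and Bmpr1b have none at the start used.

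CpG-dense stretches inside the genes, more than 1000 bp from the start, took many levels. There were 55 of them in 28 genes, of which 11 were called low, 11 intermediate, 28 high and 5 unresolved. Of 14603 such stretches in all autosomal genes, 19.5% were called low, 11.1% intermediate, 54% high and 15.4% unresolved. By role, 7 of 24 stretches in ligand genes, 1 of 13 in receptor genes, 2 of 17 in Smad genes and 1 of 1 in antagonist genes were low. The low ones lay in Bmp2, Gdf6 (2 of them), Gdf7, Gdf15, Tgfb1, Inhba, Bmpr1b, Smad6, Smad7 and Fst. Those of Smad6, Smad7 and Fst, and the nearer one of Gdf6, began 4584, 2800, 1128 and 2300 bp from the start. They began within the low domain at the start and so are in part the same low run. In Gdf7 a stretch of 2100 bp with 167 CpGs (chr12:8297918-8300017) was at 8.94% (interval 7.79 to 10.2, 2248 read counts), which accompanied the body level of 32.0%. In Gdf6 a stretch 14800 bp from the start (chr4:9859172-9860471, 79 CpGs) was at 7.91% (interval 6.41 to 9.62). In Tgfb1 the low stretch lay 17500 bp from the start, close to the far end of the gene, at 4.60% (interval 2.32 to 8.09, 239 read counts).

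In receptor genes 11 of 13 stretches were called high, beside the 54% over all genes. Acvr2b had 5 of them, from 77.1% to 93.3%, although its promoter had the lowest receptor level, and Tgfbr2 had 2, at 82.6% and 93.6%. In Bmpr1b the low stretch (chr3:142168535-142169534, 71 CpGs) was at 10.2% (interval 8.04 to 12.8). It lies near the upstream end of the gene, before the start used. Another stretch, also upstream of the start used, was at 83.4%. Smad9 had 7 stretches at levels from 36.4% to 89.8%. In Bmp8a and Bmp8b the longest stretches were at 29.6% and 32.8%, but reads covered 101 of 123 and 107 of 127 of their CpGs, and both copies are near-identical.

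Other genes of the pathway, 47 autosomal genes in 5 lists, were measured in the same way. Their median promoter level was 5.90%; 34 of 47 had a low promoter, beside 64.7% of all autosomal promoters, 5 an intermediate, 2 a high and 6 an unresolved promoter. All 7 intracellular regulators were low: Skil and Ski, which repress Smad targets, were lowest at 1.03% and 2.03%, and Zfyve9 and Tgif2 highest at 5.77% and 5.82%. Of 11 transcriptional targets 9 were low, with Cdkn2b and Msx2 lowest at 2.27% and 2.82%, and Cdkn1a highest at 74.7%. Of 19 other antagonists and modulators 14 were low, with Bmper and Crim1 lowest at 2.26% and 3.12%, and Sost and Sostdc1 highest at 53.6% and 66.9%. Of 6 other receptors and co-receptors 3 were low, with Rgma and Rgmb lowest at 3.64% and 4.04%, and Amhr2 and Hjv highest at 58.7% and 62.9%. Of 4 other ligands Gdf9 (2.48%) was low, Inhbc was at 42.9%, Inhbe at 63.7% and Gdf2 at 80.3%. For Sostdc1, Hjv, Skil, Gdf9 and Rgma the start was taken as the CpG-denser gene end, which may not be the true start. Sostdc1 had shores at 26.4% and a body at 21.7%, lower than the window used. The low domain of these genes had a median width of 2250 bp over 34 genes, and 3 of these (Msx1 with 7500 bp, Msx2 with 7000 bp and Tgif1 with 6250 bp) exceeded 5000 bp, where the share over all low promoters was 1.72%.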

How the data were processed

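Whole-genome bisulfite sequencing of 2 wild-type female epiblast samples was deposited as a CpG report of methylated and unmethylated read counts per CpG and strand, in which the authors gave no column per sample. How the samples were combined is not given in the sources used here. Per the submitters' processing notes, cutadapt 1.3, Bismark 0.12.5, Bowtie2 2.1.0 and the mm10 build were used; whether duplicate reads were removed is not given.

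From the deposited counts, the strands of each CpG were summed (21908008 CpGs, 137691322 read counts) in Python 3.11.15 with numpy 2.4.6, pandas 2.3.3 and scipy 1.17.1. Sequences other than chromosomes 1 to 19 and X, with 0.189% of read counts, were not used. A region's level is methylated over all read counts, measured with at least 5 CpGs with a read and 20 read counts. Gene positions came from RefSeq (GRCm38.p6). The start was the outermost start in the RefSeq promoter table for 34 members, and for the other 12 (Bmp2, Bmp3, Bmp7, Gdf5, Gdf6, Tgfb3, Amh, Tgfbr3, Smad4, Smad7, Nog and Fst) the gene end with more CpGs. All 20665 autosomal protein-coding genes were treated alike. The low domain ends at the first 2 bins in a row at or over 20%, skips bins with under 10 read counts and was searched to 20000 bp on each side. CpG-dense stretches are merged 500 bp windows with at least 20 CpGs, in steps of 100 bp. The procedure was tested on simulated data. Of 49 other pathway genes listed, Bmp15 and Chrdl1 lie on the X chromosome and were not measured.

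Every member is named with its promoter level, with full values for members not called low and for the 2 lowest and 2 highest promoters of each role; of the other lists the 2 highest and 2 lowest are named, except for 1 gene that is not reported here. Members, lists and rules were chosen with earlier results of these data known. Depth minimum, summary, strand, window, start and threshold were varied. Precision is set by read counts per region, with a median of 852.5 per member promoter.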

Additional observations from a re-analysis of the deposited data

How the results depend on the processing

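No paired analysis was possible because the deposited table holds 1 group with no column per sample; for the same reason no sample could be left out and no spread between samples is known. The count of low promoters ran from 29 (low under 10% in place of 20%) to 38, with 34 when the CpG-denser gene end was the start. Intermediate promoters numbered 1 with minus strand reads alone, with windows of 250 bp or 1000 bp on either side of the start and with the CpG-denser end. They numbered 3 with low under 10%. High promoters numbered 2 with 250 bp on either side and 7 with the CpG-denser end. With 250 bp on either side Bmp10, Gdf5 and Mstn changed from high to unresolved. Bmp3 then changed from low to unresolved, Bmp4 from unresolved to low and Gdf15 from unresolved to intermediate. Windows of 250 bp on either side gave the Smads a median of 2.67%. Windows of 1000 bp on either side gave 7.22% for all members, 13.6% for ligands and 5.72% for receptors. With the CpG-denser end, ligands had 12.8% and antagonists 6.42%, and the start itself moves. For Tgfb2, Inhba, Bmp5, Gdf1 and Gdf15 it moves to the downstream end of the gene. The ligand median and the count of 34 low promoters thus rest partly on levels at gene ends. There Tgfb2 and Inhba changed from low to high, Bmp5 from unresolved to high and Gdf1 from low to intermediate. For Chrd, Bmpr1b, Inha and Bmp8b the start moves upstream. Chrd changed from low to high, Bmpr1b from high to low, Inha from high to unresolved and Bmp8b from low to unresolved. The shore median was 22.9% as a mean of CpG fractions, 10.9% at 500 to 1000 bp, 39.4% at 1000 to 3000 bp and 22.0% with promoter-table starts only. The body median was 70.5% at the stricter depth, 70.7% as a mean of CpG fractions, 73.5% with 2000 bp left out at each end, 54.5% over whole genes and 72.7% with promoter-table starts only. The median low domain was 1500 bp with bins under 10% (1000 bp over all genes), 2375 bp with bins under 30% (1750 bp) and 1750 bp with promoter-table starts only (1500 bp). Promoter-table starts only, and the lower-coordinate start of Amh, were chosen after seeing the data. With plus strand reads alone 33 of 45 measured members stayed inside their main promoter interval, and with minus strand reads alone 32 of 46. The counting intervals thus did not cover the spread between strands at every member. Statements that intervals overlap or lie apart rest on counting error alone. Depth limits Bmp5, Mstn and Bmpr1b most, with 31, 109 and 100 read counts.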
